A study of Mus musculus with 12 samples.

Results

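Genes that encode stress-sensing proteins of the cardiac sarcomere were followed in the left ventricle of mice with and without cardiomyocyte Gch1. They are Ankrd1, Ankrd2, Ankrd23, Csrp3, Xirp1 and Xirp2, which are 6 of the 26921 genes of the deposited count table, found there by the Ensembl identifiers that carry these symbols in GENCODE M21. RNA was sequenced from the hearts of 16-week-old mice, 6 per genotype. WT mice were Gch1 flox/flox, with LoxP sites in both Gch1 alleles. The cmGch1 KO mice were Gch1 flox/flox and also carried 1 heterozygous Cre transgene under the promoter of α-myosin heavy chain (α-MHC), a gene of cardiomyocytes, so that other cells of the ventricle keep an intact floxed gene. Both genotypes therefore carry the floxed alleles, and the libraries hold no group with Cre but without floxed Gch1, so an effect of Cre and an effect of Gch1 loss cannot be told apart. The comparison asks whether cardiomyocyte loss of Gch1, which encodes the first enzyme of tetrahydrobiopterin synthesis, moves the expression of genes known to respond to stretch and load.

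The sarcomere is the contractile unit of the cardiomyocyte, and the Z-disc, where thin filaments and the ends of titin are anchored, is also a place where mechanical load is sensed. Ankrd1 (also called CARP), Ankrd2 and Ankrd23 (also called DARP) are the muscle ankyrin repeat proteins. They bind the N2A region of titin in the I-band, can enter the nucleus, and Ankrd1 is a well-known marker of load on the ventricle. Csrp3, the muscle LIM protein, binds at the Z-disc and has been described as part of a stretch sensor. Xirp1 and Xirp2 are the Xin repeat proteins, which bind actin filaments and sit at the intercalated disc, the junction between neighbouring cardiomyocytes.

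Depth ranged from 19921398 to 37917806 counts per library. Gch1 itself was at 10.7 ± 0.979 cpm (TMM-scaled counts in parts per 1000000; SD, n = 6) in WT and at 5.51 ± 0.859 cpm in cmGch1 KO libraries, and the highest cmGch1 KO library (6.35 cpm) was below the lowest WT library (9.32 cpm). The labels give no sex. In cmGch1 KO replicates 2 and 3, Xist was at 87.1 and 99.6 cpm, and Ddx3y, Eif2s3y, Kdm5d and Uty, which lie on the Y chromosome, had 0 counts, while elsewhere Xist did not exceed 0.235 cpm and the sum of these 4 genes was 168 to 193 cpm (10 libraries). This is the pattern of female mice in these 2 libraries and of male mice in the other 10, which include all WT libraries. Sex is therefore not balanced between the genotypes. The libraries of cmGch1 KO replicates 2 and 3 also had the lowest shares of mitochondrial counts, 14.9% and 16.1%, against 18.3% to 22.9% elsewhere. Results are therefore also given without them. In bulk tissue, fewer cardiomyocytes and less RNA per cardiomyocyte cannot be told apart.

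The sequences before the transcription starts of the ankyrin repeat genes are shown because 1 of these 3 relatives, Ankrd1, differed between the genotypes. Ankrd23 did not pass the test, and Ankrd2 had too few counts to enter it. Each is the 250 bases before a RefSeq start on GRCm38.p6, written 5′ to 3′ on the strand of the gene. The windows lie at chr19:36119845-36120094 (minus strand) for Ankrd1, at chr19:42035777-42036026 (plus strand) for Ankrd2, and at chr1:36536557-36536806 and chr1:36535740-36535989 (minus strand) for the outer and the inner start of Ankrd23. In GENCODE M21 the Ankrd1 window and both Ankrd23 windows lie within the annotated bounds of these genes, which begin farther upstream. Capitals mark matches to the M-CAT element bound by TEAD factors (CATTCC or its complement GGAATG), to a GATA element (AGATAA or TTATCT) and to a TATA element (TATAAA or TTTATA), which do not overlap each other here.
Ankrd1: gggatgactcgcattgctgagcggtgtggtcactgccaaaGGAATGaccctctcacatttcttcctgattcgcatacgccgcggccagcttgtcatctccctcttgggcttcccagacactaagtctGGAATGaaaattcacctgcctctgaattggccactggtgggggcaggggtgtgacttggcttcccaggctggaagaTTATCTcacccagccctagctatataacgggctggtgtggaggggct
Ankrd2: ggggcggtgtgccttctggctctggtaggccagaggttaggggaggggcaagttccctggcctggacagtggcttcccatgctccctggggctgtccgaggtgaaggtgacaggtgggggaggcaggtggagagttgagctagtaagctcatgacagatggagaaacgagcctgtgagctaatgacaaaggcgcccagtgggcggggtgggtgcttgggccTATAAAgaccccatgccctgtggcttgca
Ankrd23, outer start: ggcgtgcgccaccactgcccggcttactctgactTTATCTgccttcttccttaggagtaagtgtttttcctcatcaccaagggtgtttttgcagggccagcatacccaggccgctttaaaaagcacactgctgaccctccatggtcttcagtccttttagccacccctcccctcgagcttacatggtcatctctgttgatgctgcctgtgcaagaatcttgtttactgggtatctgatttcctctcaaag
Ankrd23, inner start: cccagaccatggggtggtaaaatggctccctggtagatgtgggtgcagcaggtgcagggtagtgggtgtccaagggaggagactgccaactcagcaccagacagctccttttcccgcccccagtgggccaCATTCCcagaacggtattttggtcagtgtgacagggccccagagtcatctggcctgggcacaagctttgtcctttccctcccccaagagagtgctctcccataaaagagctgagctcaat
The Ankrd1 window held 2 M-CAT matches, which begin 210 and 123 bases before the start, and a GATA match 47 bases before it. Before the inner Ankrd23 start an M-CAT match began at 120 bases, and before the outer start a GATA match began at 216 bases. A further M-CAT match began at base 37 from the outer start, beyond the bases shown. The Ankrd2 window held a TATA match 29 bases before the start and neither an M-CAT nor a GATA match. NKX2-5, CArG box and MEF2 elements were searched too and are not marked. Of these, only an NKX2-5 match, 192 bases before the outer Ankrd23 start, lay in the windows shown. In all 32851 RefSeq promoter windows of 300 bases (250 before and 50 from the start), 14.7% held at least 1 M-CAT match, 11.2% a GATA match and 13.6% a TATA match, so none of these letters is rare. A match says that the letters are there, not that a factor binds.

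Ankrd1 (ENSMUSG00000024803, chr19:36111961-36120099 on the minus strand) was the member that rose in cmGch1 KO hearts. The WT libraries held 1129.8, 1579, 1052, 947, 1347 and 915 cpm in replicates 1 to 6. The cmGch1 KO libraries held 2555, 2659, 2098, 3128, 2591 and 2189 cpm. Every cmGch1 KO library was above every WT library, with a gap between the highest WT library (replicate 2) and the lowest cmGch1 KO library (replicate 3). The mean went from 1162 ± 256 cpm in WT to 2536 ± 369 cpm in cmGch1 KO (SD, n = 6 each). The fitted difference was 1.13 ± 0.14 on the log2 scale (standard error; adjusted p = 0.00098 by edgeR's quasi-likelihood test, Benjamini-Hochberg method over all 11225 tested genes), or 2.18-fold with a 95% confidence interval from 1.78 to 2.69. The exact permutation test on cpm gave p = 0.00216 (two-sided), the smallest that 6 samples against 6 allow.

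Of the 5 members that were tested, 1 was called at a false discovery rate (FDR) under 0.05. Over all 11225 tested genes 126 (1.12%) were called, 76 of them (0.677%) higher in cmGch1 KO. At an unadjusted p under 0.05, 1293 genes (11.5%) passed, 787 of them (7.01%) higher, and the Wald test of DESeq2 called 373 of 11222 (3.32%). The libraries of the genotypes did not overlap for 210 tested genes (1.87%), Ankrd1 among them. By log2 fold change Ankrd1 was in place 12 among the tested genes, and by the difference in cpm, 1375, it was in place 2. Without cmGch1 KO replicates 2 and 3, Ankrd1 was at 2615 ± 387 cpm (SD, n = 4) in cmGch1 KO and its log2 fold change was 1.17 (adjusted p = 0.00578, edgeR's quasi-likelihood test), where 34 of 11098 tested genes (0.306%) were called. The call also held in each of the 12 fits that left out 1 library, with log2 fold changes from 1.06 to 1.23.

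**Figure D1:**
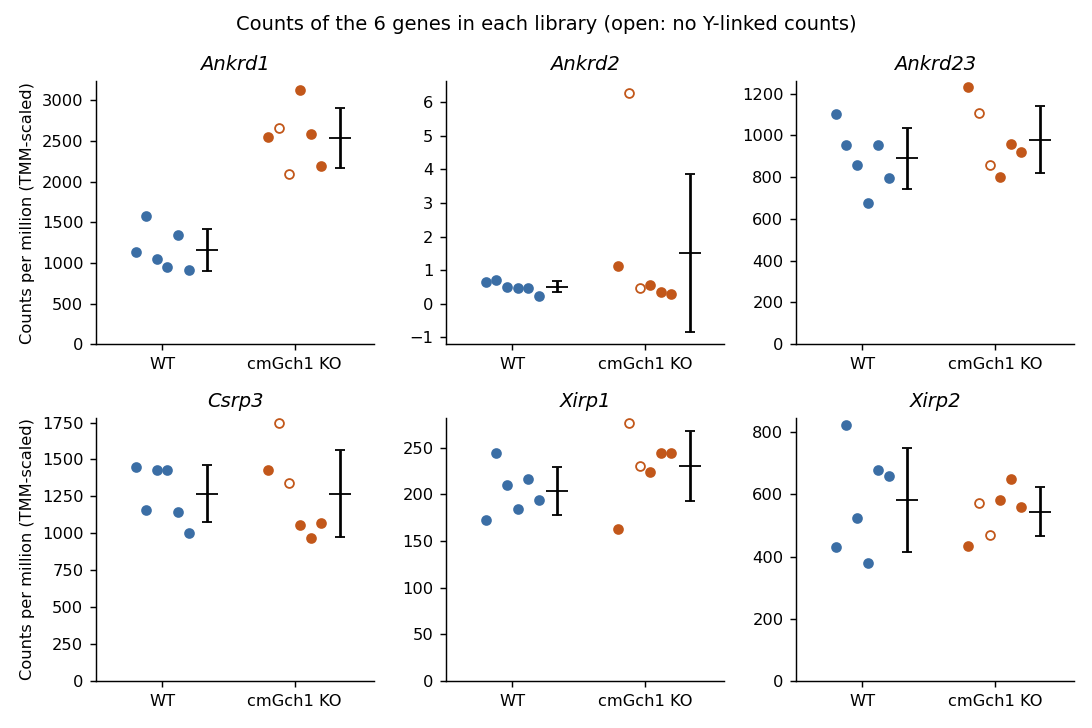
TMM-scaled cpm of each of the 6 genes in the 6 WT and 6 cmGch1 KO libraries, with the mean and SD beside the points; open points are cmGch1 KO replicates 2 and 3, which have no Y-linked counts. For Ankrd1 the lowest cmGch1 KO library (2098 cpm) is above the highest WT library (1579 cpm), for the other genes the groups overlap, and Ankrd2 has a single high library at 6.28 cpm.

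Ankrd23 (ENSMUSG00000067653, chr1:36530188-36536883 on the minus strand), the relative of Ankrd1 that is also abundant in the ventricle, ranged from 676 to 1103 cpm in WT (median 904) and from 799 to 1232 cpm in cmGch1 KO libraries (median 940.3). The ranges overlapped over most of their width. The means were 890 ± 147 and 980 ± 161 cpm (SD, n = 6 each), with a fitted log2 difference of 0.14 ± 0.13 (standard error; edgeR quasi-likelihood adjusted p = 0.774), with a 95% confidence interval of the fold from 0.914 to 1.33. In the annotation 2109 exonic bases of Ankrd23 are shared on the same strand with the gene model Gm42417. That model is not a row of the count table, which keeps genes with 0 counts in all libraries, such as Myh4. Whether the counting used it, and so left out reads there, is not known, and the level of Ankrd23 is uncertain to that extent.

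Ankrd2 (ENSMUSG00000025172, chr19:42036000-42045110 on the plus strand), which is best known from slow skeletal muscle, had few counts and did not pass the filter of cpm over 3 in at least 6 libraries. The WT libraries held 0.654, 0.699, 0.484, 0.475, 0.476 and 0.229 cpm in replicates 1 to 6. The cmGch1 KO libraries held 1.11, 6.28, 0.476, 0.543, 0.352 and 0.277 cpm. The library at 6.28 cpm, cmGch1 KO replicate 2, held 135 counts, and the other 11 libraries held between 5 and 27. The WT mean was 0.503 ± 0.166 cpm against 1.51 ± 2.36 cpm in cmGch1 KO (SD, n = 6 each), a difference smaller than the spread of the samples (two-sided exact permutation test, p = 0.394). Without cmGch1 KO replicate 2 the cmGch1 KO mean was 0.552 ± 0.329 cpm (n = 5, exact permutation test, two-sided, p = 0.812), so the higher mean rested on that library. In a fit without a filter on low counts the fitted log2 difference of Ankrd2 was 1.48 ± 0.64 (standard error; edgeR quasi-likelihood adjusted p = 0.49).

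Csrp3 (ENSMUSG00000030470, chr7:48830398-48848033 on the minus strand) had nearly the same mean in both genotypes, 1268 ± 191 cpm in WT against 1267 ± 294 cpm in cmGch1 KO (SD, n = 6 each). WT libraries ranged from 1001 to 1448 cpm (median 1294), and cmGch1 KO libraries ranged from 967 to 1744 cpm (median 1204), the highest again replicate 2. The fitted log2 difference was -0.0013 ± 0.14 (standard error; edgeR quasi-likelihood adjusted p = 0.9996), with an interval of the fold from 0.806 to 1.24. Its sign changed with the scaling and with the library left out. The cmGch1 KO libraries held 1427, 1744, 1339, 1056, 967 and 1068 cpm in replicates 1 to 6, a spread wider than the difference between the genotypes.

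The Xin repeat genes did not pass the test either. Xirp1 (ENSMUSG00000079243, chr9:120013755-120023598 on the minus strand) ranged from 173 to 244 cpm in WT (median 202) and from 163 to 277 cpm in cmGch1 KO libraries (median 237). Both the lowest (replicate 1) and the highest (replicate 2) of the 12 values were in cmGch1 KO libraries. The means were 204 ± 25.7 and 230.4 ± 37.6 cpm (SD, n = 6 each), with a fitted log2 difference of 0.18 ± 0.12 (standard error; edgeR quasi-likelihood adjusted p = 0.63), with an interval of the fold from 0.954 to 1.34. Xirp2 (ENSMUSG00000027022, chr2:67446002-67526614 on the plus strand) ranged from 381 to 825 cpm in WT (median 593) and from 435 to 650.1 cpm in cmGch1 KO libraries (median 566). All cmGch1 KO libraries of Xirp2 lay within the WT range, at means of 584 ± 168 and 545 ± 78.6 cpm (SD, n = 6 each). The fitted log2 difference was -0.10 ± 0.17 (standard error; edgeR quasi-likelihood adjusted p = 0.908), with an interval of the fold from 0.727 to 1.20. The Xirp2 change was positive, at 0.03, without WT replicate 2, the library with the highest Xirp2. Without cmGch1 KO replicates 2 and 3 the log2 differences were 0.14 for Ankrd23, -0.17 for Csrp3 (cmGch1 KO mean 1129.7 ± 204 cpm, n = 4), 0.10 for Xirp1 and -0.07 for Xirp2, with adjusted p from 0.973 to 0.999 (edgeR's quasi-likelihood test). Over all 12 libraries, the upper ends of the 4 intervals stay below the lower end of that of Ankrd1, 1.78.

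Ratios of 2 members within a library hardly depend on how libraries are scaled, since only the 0.5 cpm added to each value is not a shared factor. Ratios to Ankrd2 are an exception, since its WT mean of 0.503 cpm is about as large as the 0.5 cpm added. The log2 ratio of Ankrd1 to Csrp3 went from -0.14 ± 0.41 in WT to 1.02 ± 0.40 in cmGch1 KO libraries (SD, n = 6 each), a difference of 1.16. Against Ankrd23 the difference in the log2 ratio was 1.001, against Xirp1 0.97 and against Xirp2 1.20. For these 4 pairs the genotypes did not overlap, and each passed with an adjusted p of 0.00812 (exact permutation test, two-sided, Benjamini-Hochberg adjustment over 15 pairs, from an unadjusted p of 0.00216). Ankrd1 thus rose relative to each of the 4 other tested members. Against Ankrd2 the difference was 0.65 (adjusted p = 0.45, exact permutation test), and without cmGch1 KO replicate 2 it was 1.09 (adjusted p = 0.00812, exact permutation test). None of the 10 pairs without Ankrd1 passed, and their smallest adjusted p was 0.403 (exact permutation test), for Xirp1 to Xirp2.

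**Figure D2:**
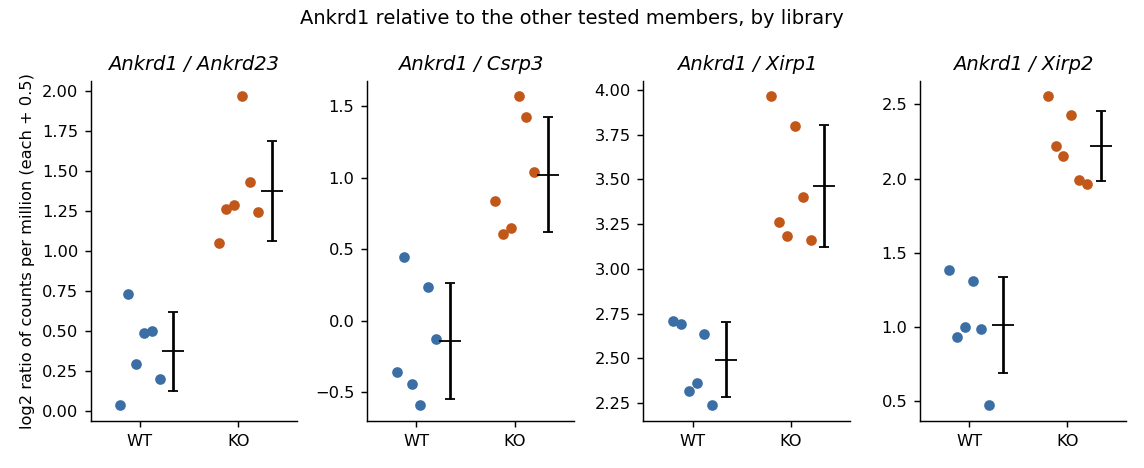
The log2 ratio of the cpm of Ankrd1 to that of Ankrd23, Csrp3, Xirp1 and Xirp2 (0.5 added to each) in each WT and cmGch1 KO library, with mean and SD beside the points. In each panel all 6 cmGch1 KO libraries lie above all 6 WT libraries, with mean differences from 0.97 to 1.20.

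Levels of different genes can be compared only per length. As counts per kilobase of exon, scaled like cpm, the WT means were 475 ± 71.6 for Csrp3, 403 ± 88.8 for Ankrd1, 329.8 ± 54.6 for Ankrd23, 48.7 ± 14.0 for Xirp2, 34.9 ± 4.40 for Xirp1 and 0.442 ± 0.146 for Ankrd2 (SD, n = 6). Csrp3 was above Ankrd1 in 4 of 6 WT libraries, and their ranges overlapped, as did those of Ankrd1 with Ankrd23 and of Xirp2 with Xirp1. The first 3 genes lay above the Xin repeat genes in every library, and these above Ankrd2. In cmGch1 KO libraries Ankrd1 was at 879 ± 128 and above Csrp3, at 474 ± 110, in 6 of 6 libraries. Among 18369 protein-coding genes the mean level of Ankrd1 stood in place 80 in WT and in place 25 in cmGch1 KO. The order of Csrp3 and Ankrd1 in WT depends on the length used: with the longest transcript in place of all exons, the levels were 521 for Csrp3 and 575 for Ankrd1.

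**Figure D3:**
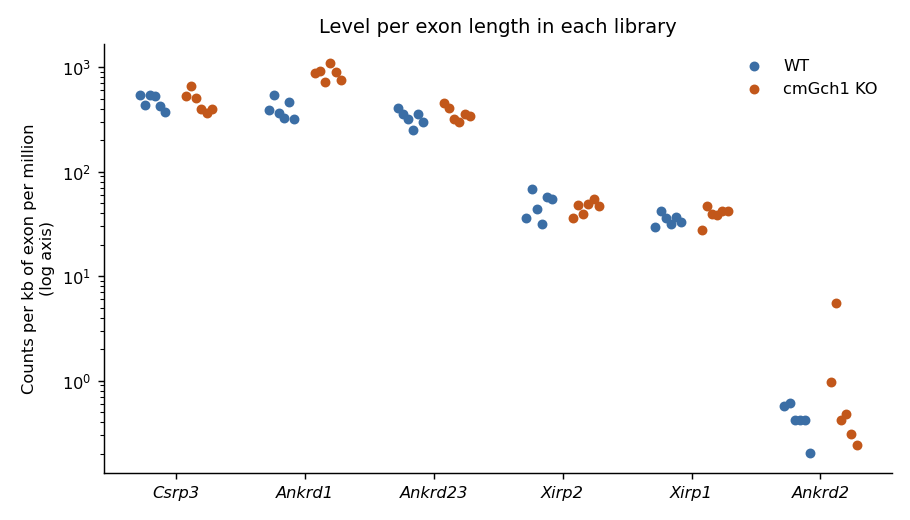
Counts per kilobase of exon, scaled like cpm, of the 6 genes in each library, on a log axis, with genes ordered by their WT mean. By its mean, Ankrd1 is between Csrp3 and Ankrd23 in WT, where the libraries of these genes overlap. In cmGch1 KO it is above both (mean 879). The Xin repeat genes are lower, and Ankrd2 is lowest, at a mean of 0.442 in WT.

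Other genes that respond to load on the ventricle were taken as a list of 8, chosen with earlier results of these data known. Of these, 7 were tested and 2 were called, both higher, where 0.677% of all tested genes were called higher. At an unadjusted p under 0.05, 5 of the 7 passed, against 11.5% of all tested genes. The Wald test of DESeq2 called 4, against 3.32% of all. The replicate block and a surrogate variable each called 4 as well. Over all tested genes, the replicate block called 112 higher and 76 lower, and the surrogate variable 305 higher and 331 lower. With the sex-linked covariate 1 was left (38 higher and 24 lower over all). Without cmGch1 KO replicates 2 and 3 it was also 1 (16 higher and 18 lower over all). Over the 7 genes the median log2 fold change was 0.78, against -0.01 over all tested genes. Ccn2, a matricellular protein induced in stressed cardiomyocytes and fibroblasts, rose from 58.8 ± 5.12 to 108 ± 17.2 cpm (SD, n = 6 each), with a fitted log2 difference of 0.88 ± 0.10 (standard error; edgeR quasi-likelihood adjusted p = 6.88e-04). Its cmGch1 KO libraries (79.8 to 134 cpm) did not overlap the WT libraries (52.7 to 68.0 cpm). Nppa, which encodes atrial natriuretic peptide, rose from 153 ± 64.8 to 442 ± 166 cpm, with a fitted log2 difference of 1.53 ± 0.30 (standard error; edgeR quasi-likelihood adjusted p = 0.024), with overlapping libraries. The call of Ccn2 held in 12 of 12 fits that left out 1 library and that of Nppa in 6 of 12, lost without WT replicates 2, 3 or 5 or cmGch1 KO replicates 2, 3 or 4. Without cmGch1 KO replicates 2 and 3 together, Nppa was at 1.30 (adjusted p = 0.176, edgeR's quasi-likelihood test). The fitted values of the other list members were 1.07 for Nppb, 0.78 for Acta1, 0.46 for Rcan1, 0.13 for Myh7 and -0.22 for Ccn1, with adjusted p from 0.0701 to 0.874 (edgeR's quasi-likelihood test). Timp1 was below the filter.

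**Figure D4:**
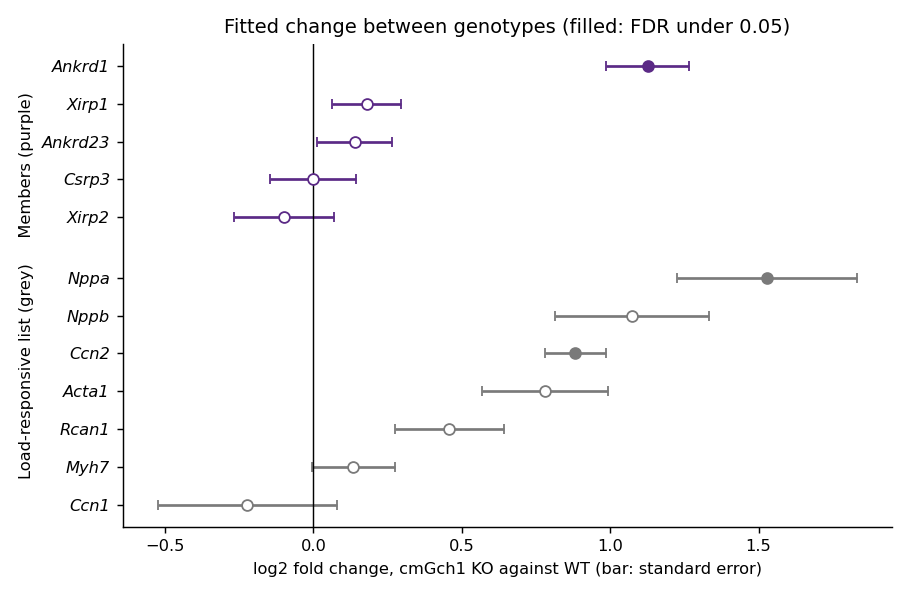
Fitted log2 difference, cmGch1 KO minus WT, with its standard error for the 5 tested members (purple) and the 7 tested genes of the load-responsive list (grey); filled points have an FDR under 0.05. Ankrd1 is at 1.13, beside Nppa at 1.53, Nppb at 1.07 and Ccn2 at 0.88, and the other 4 members lie between -0.10 and 0.18.

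Whether Ankrd1 moved with these 7 genes among hearts of 1 genotype was examined after the values had been seen, on deviations from the genotype means over 12 libraries. The highest relation was that with Acta1 (Pearson r = 0.485, permutation p = 0.07, adjusted p = 0.49 over 7 genes; Spearman rho = 0.49, permutation p = 0.0838, adjusted p = 0.587; r = 0.505 without the 2 libraries farthest from the median of Ankrd1). None of the 7 relations passed the adjustment, with r from -0.25 to 0.48.

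Of the genes that bind titin or are bound by it, 13 of 14 were tested and 0 were called, with 7 fitted above and 6 below 0 and a median log2 fold change of 0.02 (edgeR's quasi-likelihood test). At an unadjusted p under 0.05, 1 of them passed, and the Wald test of DESeq2 called 0. The largest fitted rise was that of Fhl1, at 0.19 (standard error 0.20, adjusted p = 0.814, edgeR's quasi-likelihood test), and the largest fall that of Trim63, a ubiquitin ligase that binds titin at the M-band, at -0.24 (standard error 0.08, adjusted p = 0.233). Fhl1, an LIM protein that binds titin near the spring region, was at 120 ± 3.35 cpm in WT hearts against 137 ± 61.4 cpm in cmGch1 KO, where replicate 2 alone held 259.9 cpm. The remaining list member, Capn3, the protease that binds titin in the same N2A region as the ankyrin repeat proteins, was below the filter and is named after its values were seen. Its mean was 3.54 ± 0.489 cpm in WT (2.96 to 4.13) against 1.79 ± 0.502 cpm in cmGch1 KO (1.04 to 2.30), with no overlap of the libraries (two-sided exact permutation test, p = 0.00216, and p = 0.00476 without cmGch1 KO replicates 2 and 3, the smallest possible in each case). With the filterByExpr filter its fitted log2 difference was -0.98 ± 0.18 (standard error; edgeR quasi-likelihood adjusted p = 0.0162).

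Among 16 tested of 17 structural and adaptor proteins of the Z-disc, 0 were called by edgeR's quasi-likelihood test. At an unadjusted p under 0.05, 7 passed (11.5% of all tested genes did). By the Wald test of DESeq2, 2 were called (3.32% of all). The replicate block called 2 (112 higher and 76 lower over all), as did a surrogate variable (305 higher and 331 lower over all). Pdlim1 had the smallest adjusted p of the list, 0.0924 (log2 difference 0.25, edgeR's quasi-likelihood test). The median log2 fold change was 0.05. Synpo2l, which binds actin and α-actinin at the Z-disc, had the largest fitted rise, 0.50 (standard error 0.13, adjusted p = 0.107), from 169.7 ± 33.5 to 239 ± 35.1 cpm (SD, n = 6 each, edgeR's quasi-likelihood test). Myot, which cross-links actin at the Z-disc, had the largest fall, -0.35 (standard error 0.10, adjusted p = 0.147, the same test). The partners of the Xin proteins at the intercalated disc held 1 called gene among 13, where 1.12% of all tested genes were called. Of the 13, 3 passed at an unadjusted p under 0.05 (11.5% of all did). The Wald test of DESeq2 called 2 of them (3.32% of all). Ctnna3, an α-catenin of the cardiac intercalated disc, fell from 28.5 ± 6.48 to 14.9 ± 2.36 cpm (SD, n = 6 each), with a fitted log2 difference of -0.93 ± 0.15 (standard error; edgeR quasi-likelihood adjusted p = 0.00672). Its cmGch1 KO libraries (11.1 to 16.9 cpm) were all below the WT libraries (21.9 to 38.1 cpm), and without cmGch1 KO replicates 2 and 3 it was at -0.94 (adjusted p = 0.0549). The other 12 genes of that list had a fitted change between -0.23 and 0.29, and over all 13 the median was 0.05.

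Of the transcription regulators that act on load-responsive genes, 14 of 15 were tested and 0 were called by edgeR's quasi-likelihood test, with 0 at an unadjusted p under 0.05 and 0 called by the Wald test of DESeq2. The median was -0.03, with Gata4 at 0.15 (adjusted p = 0.552) and Yap1 at -0.14 (adjusted p = 0.744) as the largest rise and fall. The TEAD cofactors Yap1 and Wwtr1 were at 115 ± 16.5 and 78.5 ± 6.43 cpm in WT, and at 105 ± 17.0 and 84.4 ± 4.19 cpm in cmGch1 KO (SD, n = 6 each). The relatives of Csrp3, Csrp1 and Csrp2, were at -0.09 (adjusted p = 0.867) and -0.26 (adjusted p = 0.581, edgeR's quasi-likelihood test), with 0 called, 0 at an unadjusted p under 0.05 and 0 called by the Wald test of DESeq2.

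Among libraries of 1 genotype, on deviations from the genotype means over 12 libraries, 2 of the 15 pairs of members passed. Xirp1 and Xirp2 moved together (Pearson r = 0.699, permutation p = 0.00437, adjusted p = 0.0354; Spearman rho = 0.671, permutation p = 0.0175, adjusted p = 0.107), with r = 0.641 without the 2 libraries farthest from the median of Xirp1. Ankrd2 and Csrp3 did too (r = 0.759, permutation p = 0.00472, adjusted p = 0.0354; rho = 0.755, permutation p = 0.00734, adjusted p = 0.107), with r = 0.623 without the 2 farthest libraries. Without cmGch1 KO replicates 2 and 3, over 10 libraries, neither passed: Xirp1 with Xirp2 had r = 0.785 (permutation, adjusted p = 0.0653) and Ankrd2 with Csrp3 had r = 0.718 (permutation, adjusted p = 0.193). Csrp3 and Xirp2 ran in opposite directions in both sets of libraries, with r = -0.59 over 12 (permutation, adjusted p = 0.149) and r = -0.81 over 10 (permutation, adjusted p = 0.0671), without passing.

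**Figure D5:**
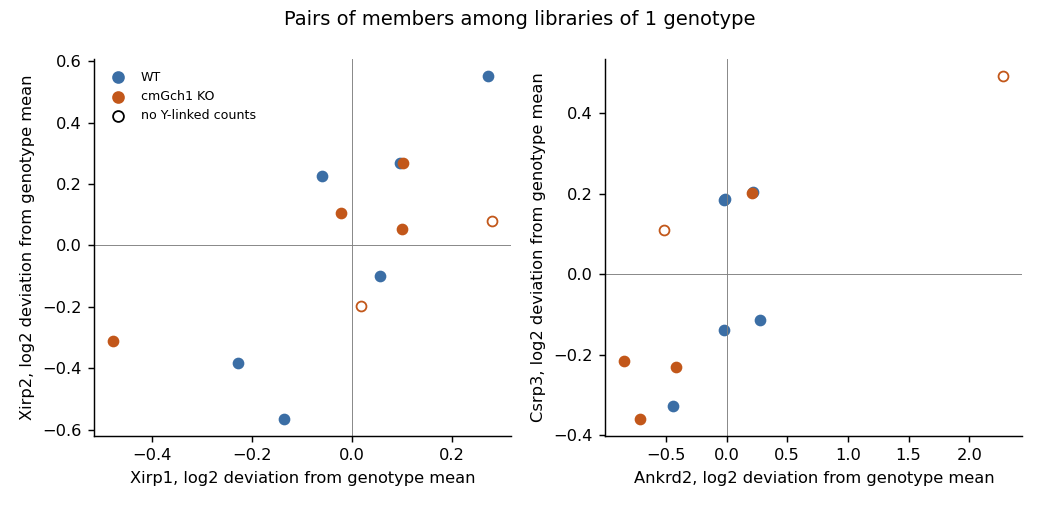
Deviations of log2 cpm (0.5 added) from the genotype mean for Xirp1 against Xirp2 and for Ankrd2 against Csrp3, 1 point per library; open points have no Y-linked counts. Pearson r is 0.699 in the first panel and 0.759 in the second, where cmGch1 KO replicate 2 lies far from the other libraries.

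The genes whose log2 cpm over the 12 libraries was most like that of a member were taken from 11220 tested genes and are a description with no test. For Ankrd1 they were Smarcal1 (r = 0.941), Blk (r = 0.938) and Ndrg4 (r = 0.935). On deviations from the genotype means these were 0.802, 0.721 and 0.46. Since Ankrd1 did not overlap between the genotypes, a choice by r over all 12 libraries favours genes that also differ between them. Blk and Ndrg4 had called rises of 1.20 and 0.54 on the log2 scale (adjusted p = 0.00672 and 6.88e-04, edgeR's quasi-likelihood test), which are therefore no separate result. For Xirp2 they were Nrap, an actin-binding protein of the intercalated disc that is also on the Z-disc list (r = 0.976), Six4 and Usp47. For Csrp3 they included Calm2 (r = 0.963) and Bag2, and they were for Xirp1 Ptger1 (r = 0.949), Tsr1 and Smarca4, and for Ankrd23 Tmem53 (r = 0.89), Rraga and Ube2z.

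Markers of the cell types in the ventricle were read beside these values, and their part in the results was not tested. The 7 cardiomyocyte markers summed to between 56095 and 60019 cpm in WT and between 50848 and 56394 cpm in cmGch1 KO libraries, with 0 of 7 called and 6 of 7 fitted lower (edgeR's quasi-likelihood test; 0 at an unadjusted p under 0.05). The 5 macrophage markers summed to between 102 and 118 cpm in WT and between 119 and 143 cpm in cmGch1 KO, without overlap, with 0 of 5 called and 5 of 5 higher at an unadjusted p under 0.05, where 7.01% of all tested genes were. The fibroblast and endothelial markers overlapped between the genotypes in their sums, with 0 of 6 and 0 of 5 called (2 and 0 at an unadjusted p under 0.05). Of the 5 smooth muscle and pericyte markers 1, Acta2, was called, higher (0.66, adjusted p = 0.00672, edgeR's quasi-likelihood test). The other 4, Myh11, Tagln, Cnn1 and Rgs5, were fitted lower, from -0.40 to -0.06, with 0 called. Without cmGch1 KO replicates 2 and 3 the call of Acta2 was lost (0.51, adjusted p = 0.0506, the same test). Ankrd1 is also made in atria, and the 4 atrial markers summed to between 7.66 and 285 cpm in WT and between 45.3 and 188 cpm in cmGch1 KO libraries, 3 tested and 0 called (0 at an unadjusted p under 0.05). The Wald test of DESeq2, which called 3.32% of all tested genes, called 1 fibroblast marker and 1 smooth muscle and pericyte marker. It called 0 of the cardiomyocyte, macrophage, endothelial and atrial markers. For Ankrd2, the 8 skeletal muscle markers summed to between 2.45 and 2.90 cpm in WT and between 3.22 and 7.63 cpm in cmGch1 KO libraries, without overlap. The highest sum was in cmGch1 KO replicate 2, and the cmGch1 KO median was 6.40 cpm. None of the 8 markers passed the filter, and Myh4 had 0 counts in all 12 libraries. Most of the sum in cmGch1 KO was Atp2a1, at 3.14 ± 0.948 cpm against 0.882 ± 0.422 cpm in WT (SD, n = 6 each).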

How the data were processed

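Left ventricular RNA-seq of 16-week-old WT (n = 6) and cmGch1 KO (n = 6) mice was analysed, with genotypes from the sample labels. The authors made stranded paired-end libraries (dUTP) and counted reads by means of HISAT2, Picard and featureCounts. The submitters' processing notes name HISAT2, SAMtools and GRCm38, without versions. The authors deposited raw counts per Ensembl gene, which were used here, and normalized values on a log2 scale, deposited for the same genes, which were tested with limma 3.58.1 (with a trend) as an alternative only. The annotation used for counting and its strand setting are not given in the sources used here. GENCODE M21 gave symbols for 26582 of the 26921 genes (98.7%).

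edgeR 4.0.16 in R 4.3.3 was run with TMM scaling, a filter that kept genes above 3 cpm in 6 or more libraries, glmQLFit and glmQLFTest with genotype as the only term and Benjamini-Hochberg adjustment over 11225 genes (FDR threshold 0.05). The study names edgeR, that cpm minimum and that threshold, but no number of libraries. It reports more changed genes in each direction than the 76 higher and 50 lower called here, and the cause was not tested. Alternatives used DESeq2 1.42.0 (Wald test, size factors), library size alone, the deposited normalized values, filterByExpr, no filter, a replicate block, sex-linked expression as a covariate and a surrogate variable (sva 3.50.0). The fits were tested on simulated counts. Within-library ratios, relations and permutation tests used cpm scaled by TMM, with 0.5 added on the log2 scale, and relations used 100000 permutations within genotype. A count of 0 was taken to allow up to 3 counts, at most 0.151 cpm, for counting error only. Promoter windows are from RefSeq on GRCm38.p6, which held 5 of the 6 genes in 7 windows.

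The genes named are the members, Gch1, Xist and 4 Y-linked genes, called genes of each pathway list or its largest rise and fall, and the 3 genes most like each tested member, of which 1 is not reported here. Other names are given as members of a list, or are marked as chosen after their values were seen. The members and lists were chosen with earlier results of these data known. The study's statistics treat each animal as 1 unit, and the labels do not tie libraries to animals or litters, so p-values measure the spread between these libraries.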

Additional observations from a re-analysis of the deposited data

Results flagged for a closer look

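For 3 genes the value of a single library stood apart from the rest of its group, out of 50 groups of 6 libraries examined, where chance gives about 1 in 20 (Dixon's test at the 95% level). Ankrd2 in cmGch1 KO replicate 2 was at 6.28 cpm, against 1.11 cpm in the next library of its genotype, a gap of 0.861 of the range of the group. Fhl1 in the same library was at 259.9 cpm, against 137 cpm in the next (0.79 of the range). Csrp2 in WT replicate 4 was at 18.0 cpm, against 13.5 cpm in the next (0.6252 of the range). The causes were not tested.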

How the results depend on the processing

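The rise of Ankrd1 was called in all 12 fits that left out 1 library and in all 10 other settings, with log2 fold changes from 1.06 to 1.23, and Ankrd1 was the only member called in each of these 22 settings. The 4 ratios of Ankrd1 to the other tested members also passed in each of their alternatives. With 5 cpm added in place of 0.5, or without the libraries lacking Y-linked counts, that to Ankrd2 passed as well (5 pairs). Outside cmGch1 KO replicate 2, Ankrd2 did not exceed 1.11 cpm. With 5 cpm added, its ratio therefore mainly restates the rise of Ankrd1 and says little about Ankrd2. The counts of called genes moved more. From 76 higher genes, the count went to 218 with the Wald test of DESeq2, 116 with library size alone, 38 with the sex-linked covariate, 305 with a surrogate variable and 16 without the libraries lacking Y-linked counts. From 50 lower genes, it went to 155 with the Wald test, 76 with the replicate block, 24 with the sex-linked covariate, 331 with a surrogate variable and 18 without those libraries. Leaving out 1 library gave 44 to 111 higher genes and 28 to 96 lower genes. Calls in the pathway lists, 3 in all, were 8 with the Wald test, 5 without a filter, 7 with the replicate block, 10 with a surrogate variable and 1 without those libraries, and 2 to 4 with 1 library left out. Of the 2 related pairs of members, 0 passed without those libraries. The relations of Ankrd1 with the load-responsive genes, added with that alternative after the data were seen, gave 0 calls with and without them.

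The Csrp3 change had the opposite sign with the Wald test (5.93e-04), with DESeq2 size factors (5.74e-04) and with library size alone (0.0821), which moved the median of all tested genes from -0.01 to 0.07, and lay between -0.119 and 0.0666 with 1 library left out. Its largest moves were to -0.17 without the libraries lacking Y-linked counts and to -0.16 with the sex-linked covariate. Xirp2 lay between -0.196 and 0.026. The cause was not tested. Same-numbered WT and cmGch1 KO libraries were compared in their deviations from the group means. Their correlation was 0.69, -0.11, -0.08, -0.14, 0.42 and 0.53 for numbers 1 to 6. Of the 6 WT libraries, 3 were most like the cmGch1 KO library of their own number. Whether libraries with the same number were paired or shared a batch was not tested. The depth limits Ankrd2, which had 5 to 27 counts in 11 of the libraries.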

Other observations

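Relative to the next library of either genotype, Ankrd2 in cmGch1 KO replicate 2 was the gene in place 2 of 24643 by the ratio of its cpm to the highest of the other 11 libraries, with 0.5 cpm added to both. The ratio was 4.21, from 6.28 and 1.11 cpm. Rpl7a-ps11, a ribosomal protein pseudogene, stood before it, and after it came Timp1, an inhibitor of matrix metalloproteinases that is on the load-responsive list (16.7 against 4.47 cpm in the next library, a ratio of 3.46 with 0.5 added), and Tnc, a matrix glycoprotein of injured tissue (10.3 against 3.23 cpm, a ratio of 2.90). These genes were named after their values were seen, and no test was made.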
